A study of Saccharomyces cerevisiae with 8 samples.

Results

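The 31 genes described here encode aminoacyl-tRNA synthetases of budding yeast (Saccharomyces cerevisiae). They were chosen by gene name, for the function of the product and the compartment it serves, from 6668 listed genes. Of these, 18 encode cytosolic enzymes or subunits. Among the 18, 4 (ALA1, GRS1, HTS1 and VAS1) were classed as dual, since each gene also makes a separate mitochondrial form. The other 13 encode enzymes of the mitochondria alone (DIA4, ISM1, MSD1, MSE1, MSF1, MSK1, MSM1, MSR1, MST1, MSW1, MSY1, NAM2 and SLM5). All 31 were present in all 8 libraries and were matched to the R64 reference, each as 1 coding exon. None overlapped another annotated gene (0 of 31) or had a near-identical copy elsewhere (0 of 31, at a minimum of 90% identity over 100 nt).

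The samples were 4 strains of the W303 background: wild type, a strain lacking MSP1 (msp1delta), a strain lacking PEX19 (pex19delta), and a strain lacking both (msp1delta pex19delta). MSP1 encodes a membrane ATPase that pulls misplaced tail-anchored proteins out of the outer mitochondrial membrane, and PEX19 encodes the receptor that brings membrane proteins to peroxisomes. All strains grew for 16 h on 2% glycerol and 2% ethanol, carbon sources that yeast can use only by respiration, in a synthetic complete medium. RNA-seq and ribosome-protected fragments (RPF, the mRNA pieces shielded by translating ribosomes) were each sequenced once per strain, so no value below has a replicate and no test was possible. Cycloheximide and tigecycline were present in the lysates. Intervals are 95% counting intervals, which cover counting error only and treat each read as independent. The reads carry no molecular identifiers to show repeated copies, so the intervals may be too narrow.

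A synthetase joins 1 amino acid to the tRNAs that decode it. Mitochondria translate their own small genome, which encodes core subunits of the respiratory chain, and need charged tRNAs of their own. For most amino acids yeast has separate nuclear genes for the cytosolic and the mitochondrial enzyme. The mitochondrial enzymes are made on cytosolic ribosomes and imported, as a rule by a presequence at the N-terminus that is rich in basic and poor in acidic residues. A few genes make both forms from alternative translation starts.

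RNA-seq totals ran from 4694951 to 5367091 reads and RPF totals from 1101458 to 2300792, the lowest in msp1delta. MSP1 and PEX19 were listed at 1, the lowest count in any file, in both libraries of each strain that lacks them, and at 104 to 731 in the others. Cytosolic or dual members had 142 to 2471 RPF reads per library and mitochondrial members 26 to 226, so the values of the latter carry the wider intervals. Levels within a library are given in TPM (transcripts per 1000000, corrected for gene length), rescaled over the listed genes. They are shares of a library from a bulk culture, in which fewer cells with a transcript and less RNA per cell cannot be told apart.

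The 4 dual genes carry their 2 products in the sequence around the start codon, and their starts are shown because the counts of each gene sum over both forms. In HTS1 (histidine) and VAS1 (valine) a second ATG follows in frame, at codon 21 and codon 47, and the stretch between the 2 starts is the presequence of the mitochondrial form. ALA1 (alanine) and GRS1 (glycine) are known to start their mitochondrial form upstream of the annotated ATG at codons other than ATG, ACG in ALA1 and TTG in GRS1. In the R64 genome 2 adjacent ACG codons lay 24 and 25 codons upstream of the ALA1 ATG, and 1 TTG lay 23 codons upstream of that of GRS1, each in frame with no stop codon between. Capitals mark the start codons, and each is printed 5′ to 3′ on the coding strand.
HTS1, first to second in-frame ATG, chrXVI:638951-639019, minus strand: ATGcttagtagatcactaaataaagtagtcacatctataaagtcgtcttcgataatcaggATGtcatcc
VAS1, first to second in-frame ATG, chrVII:672186-672332, plus strand: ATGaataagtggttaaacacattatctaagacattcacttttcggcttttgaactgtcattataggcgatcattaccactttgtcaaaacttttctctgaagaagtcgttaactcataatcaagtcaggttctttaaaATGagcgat
ALA1, upstream ACG codons, chrXV:949164-949193, minus strand: taagacaagACGACGtcaactaccggatta
GRS1, upstream TTG codon, chrII:483416-483445, minus strand: caagaaaaaTTGtcgttcttcaatatcagt

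In wild type every cytosolic or dual gene stood above every mitochondrial gene, in RNA and in RPF. The 18 cytosolic or dual genes had a median RNA level of 234 TPM, from 97.4 for WRS1 (tryptophan) to 457 for GUS1 (glutamate). The 13 mitochondrial genes had a median of 55.8 TPM, from 39.3 for SLM5 (asparagine) to 90.3 for MSY1 (tyrosine), which makes the first median 4.19 times the second. In RPF the medians were 151 and 18.6 TPM, a ratio of 8.12, with ranges of 51.8 (MES1, methionine) to 490 (DPS1, aspartate) and 7.16 (SLM5) to 44.1 (MSY1). For comparison, the median over all listed genes, many of them hardly read, was 53.8 TPM in RNA and 18.3 in RPF, close to the mitochondrial medians. Over the 3737 genes with a mean of at least 50 reads in each assay it was 98.5 and 50.7 TPM, above the mitochondrial medians. Cytosolic or dual members took 0.928% of RNA-seq reads and 0.932% of RPF reads, while mitochondrial members took 0.131% and 0.0607%.

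**Figure D1:**
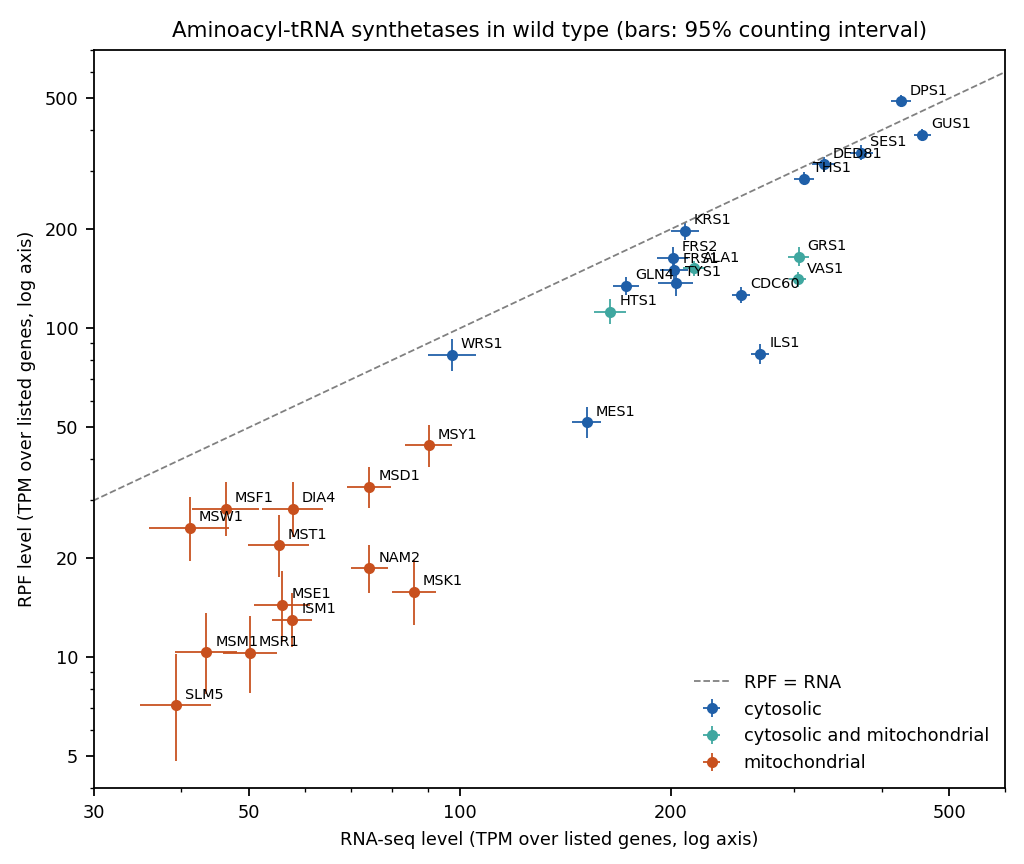
RNA-seq level (x, TPM over listed genes, log axis) against RPF level (y, same unit, log axis) of the 31 synthetase genes in wild type, 1 point a gene, with 95% counting intervals as bars. The mitochondrial genes, at 7.16 to 44.1 TPM in RPF, lie below every other member, and the dashed line marks equal RNA and RPF levels.

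The separation held in RPF in all 4 strains. The ratio of class medians in RPF was 7.87 in msp1delta, 8.33 in pex19delta and 7.26 in msp1delta pex19delta, and the ranges did not overlap in any of these libraries. In RNA the ratio was 3.55, 4.22 and 3.74, and the ranges overlapped in the 2 strains without PEX19. There WRS1, the lowest cytosolic gene, stood at 82.7 TPM in pex19delta, under MSD1 at 101, and at 78.7 TPM in the double deletion, under MSY1 at 84.9. Of the cytosolic or dual genes DPS1 was the highest in RPF in each strain, at 490, 500, 496 and 499 TPM in wild type, msp1delta, pex19delta and the double deletion. MES1 was the lowest of them in each strain, at 51.8, 75.5, 78.3 and 60.8 TPM.

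Comparing the 2 enzymes for the same amino acid removes differences between amino acids. There were 12 amino acids with a gene of each kind outside the dual ones, which made 13 pairs because cytosolic phenylalanyl-tRNA synthetase has 2 subunits, FRS1 (β) and FRS2 (α), and the mitochondrial enzyme MSF1 is a single chain. In wild type RNA the cytosolic gene exceeded its partner by a median of 4.36, from 2.25 for TYS1 over MSY1 (2.05 to 2.48) to 8.41 for DED81 over SLM5 (7.46 to 9.53). In RPF the median was 6.77, from 3.12 for TYS1 over MSY1 (2.62 to 3.72) to 43.9 for DED81 over SLM5 (30.7 to 65.4), the last from 30 SLM5 reads. The RPF ratio exceeded the RNA ratio in 13 of 13 pairs in wild type, pex19delta and the double deletion and in 12 of 13 in msp1delta. The exception there was FRS1 over MSF1, at 4.03 in RNA and 3.92 in RPF.

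The lysyl pair showed one of the widest gaps between the assays. KRS1, the cytosolic enzyme, and MSK1, which besides charging mitochondrial tRNA helps import a cytosolic lysine tRNA, differed 2.44-fold in wild type RNA and 12.5-fold in RPF (9.93 to 16.0). In RPF the ratio was 11.7 in msp1delta, 10.0 in pex19delta and 8.41 in the double deletion. The asparaginyl pair varied most among strains: DED81 over SLM5 in RPF was 43.9, 17.4, 30.01 and 28.3 in wild type, msp1delta, pex19delta and the double deletion. Its intervals in wild type (30.7 to 65.4) and msp1delta (12.1 to 25.8) did not overlap.

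**Figure D2:**
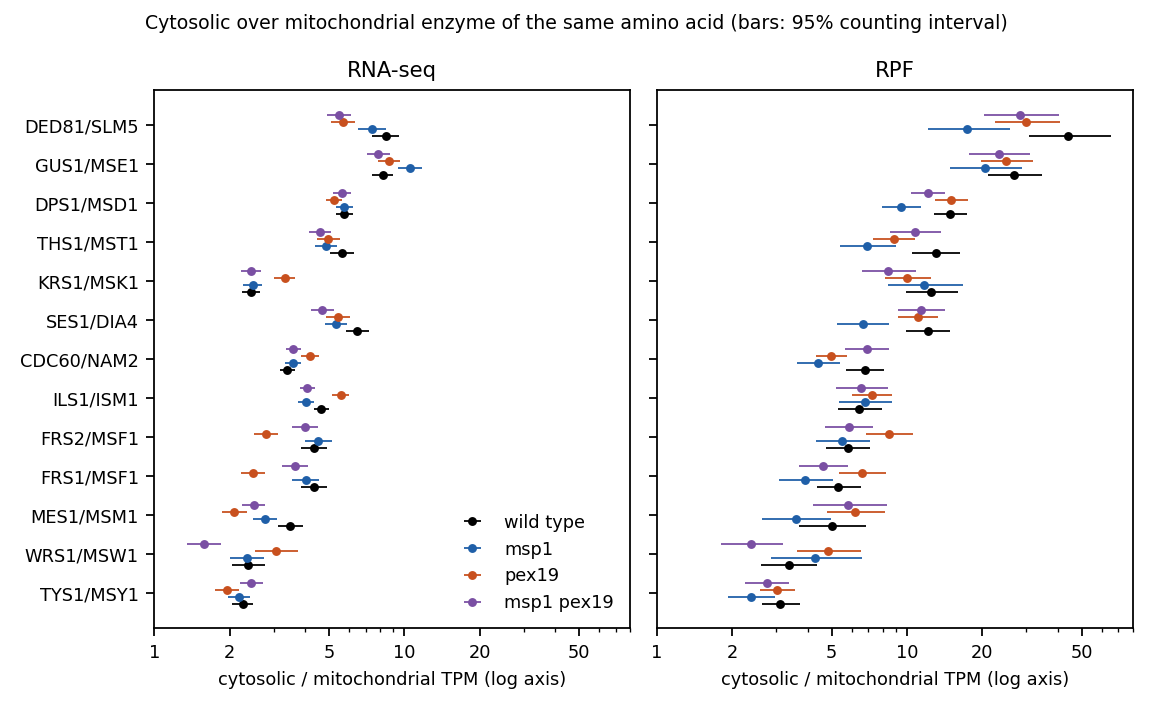
Ratio of the cytosolic to the mitochondrial gene of the same amino acid, in TPM on a log axis, for 13 pairs, in RNA-seq (left) and RPF (right), 1 point a strain (msp1, pex19 and msp1 pex19 are the deletions) with 95% counting intervals. Every ratio is above 1, and in wild type the median is 4.36 in RNA-seq and 6.77 in RPF.

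Translational efficiency, the log2 of RPF TPM over RNA TPM, expressed the same difference gene by gene. It was read for the 29 members that had a mean of at least 50 reads in each assay. All 18 cytosolic or dual genes and 11 of 13 mitochondrial genes passed; MSR1 (arginine) and SLM5, with mean RPF counts of 43.2 and 36.2, did not. In wild type the cytosolic or dual median was −0.40 and the mitochondrial median −1.33, around a median of −0.86 for the 3737 genes that passed. Of the 18 first genes 13 lay above that general median, and of the 11 mitochondrial genes 2 did, MSF1 (−0.71) and MSW1 (−0.73). DPS1 had the highest value of all members, 0.20 (0.12 to 0.28), and MSK1 the lowest, −2.44 (−2.80 to −2.10).

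Efficiency also moved with RNA level over all genes. The 1438 measured genes with wild type RNA levels in the range of the mitochondrial members (41.1 to 90.3 TPM) had a median of −1.27, and 5 of the 11 mitochondrial members lay above it. The 1482 genes in the range of the cytosolic or dual members (97.4 to 457 TPM) had a median of −0.63, and 13 of 18 members lay above it. Set against genes of like RNA level, the mitochondrial median of −1.33 was thus close to theirs, and the cytosolic or dual median of −0.40 was above theirs.

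ILS1 and MES1 were the low exceptions among cytosolic genes. ILS1, isoleucyl-tRNA synthetase, had 268 TPM of RNA but 83.8 TPM of RPF in wild type, an efficiency of −1.68, and values of −0.96, −1.62 and −1.76 in msp1delta, pex19delta and the double deletion. MES1, methionyl-tRNA synthetase, had −1.55 in wild type and −0.85, −0.51 and −1.24 in the deletions. The 4 dual genes had a median of −0.71 in wild type, from −1.11 (VAS1) to −0.51 (ALA1), against −0.27 for the 14 genes classed as cytosolic. The gap between the medians of cytosolic or dual and mitochondrial genes was 0.94 in wild type, 0.71 in msp1delta, 1.21 in pex19delta and 0.99 in the double deletion.

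**Figure D3:**
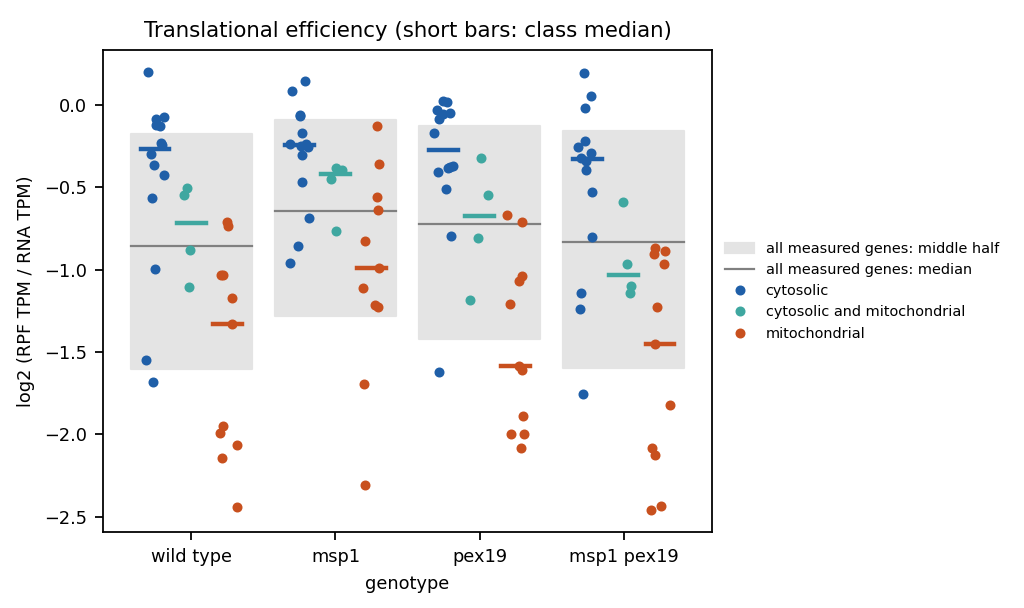
Translational efficiency (y, log2 of RPF TPM over RNA TPM) of the 29 measured synthetase genes in each strain (x; msp1, pex19 and msp1 pex19 are the deletions), 1 point a gene, with short bars for class medians, a grey line for the median and a grey box for the interquartile range of the 3737 measured genes. The mitochondrial points centre below the grey line in every strain, at −1.33 in wild type.

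Codon usage separated the classes as sharply as level did. The codon adaptation index scores how far a gene uses the codons favoured in 138 genes picked by a ribosomal protein name (RPL, RPS or RPP with a number). It had a median of 0.431 in cytosolic or dual genes, from 0.361 (GLN4, glutamine) to 0.554 (GUS1). In mitochondrial genes it was 0.205, from 0.166 (DIA4, serine) to 0.250 (MST1, threonine), so the ranges did not overlap. The median over 3735 measured genes was 0.231. Within the classes the rank correlation of the index with the wild type RPF level was 0.70 over the 18 cytosolic or dual genes and −0.21 over the 13 mitochondrial ones, where all points come from the same library and share its depth. An A at position −3 before the start codon, the base most favoured in yeast, was present in 14 of 18 and 8 of 13 genes, against 65.1% of measured genes.

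**Figure D4:**
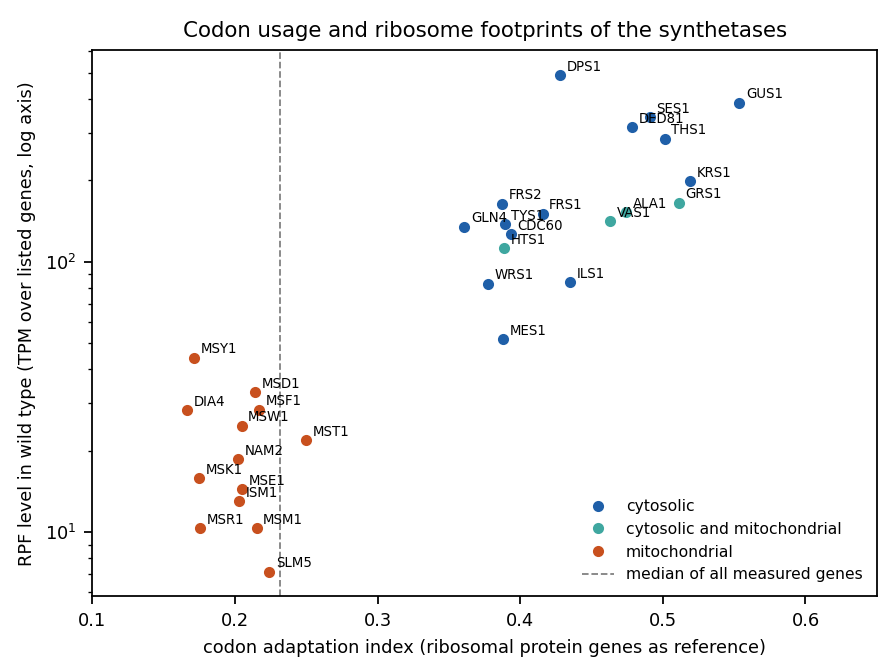
Codon adaptation index (x, no unit) against the wild type RPF level (y, TPM over listed genes, log axis) of the 31 synthetase genes, 1 point a gene, without error bars. Mitochondrial genes span 0.166 to 0.250 on the x axis and the other members 0.361 to 0.554, with the median of all measured genes at 0.231 as a dashed line.

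Subunits of 1 enzyme can be compared directly. The FRS1 to FRS2 ratio in RNA was 1.00 in wild type (0.938 to 1.08), 0.888 in msp1delta (0.827 to 0.953), 0.891 in pex19delta (0.826 to 0.961) and 0.912 in the double deletion (0.850 to 0.979). In RPF it was 0.918 (0.827 to 1.02), 0.713 (0.622 to 0.818), 0.782 (0.710 to 0.860) and 0.790 (0.703 to 0.887). The 2 subunits were thus within 1.5-fold of each other in all 8 libraries, and FRS2 exceeded FRS1 in RPF in the 3 deletions by more than counting error. GUS1 and MES1, which form a complex with the tRNA-binding cofactor ARC1, were less even. GUS1 exceeded MES1 3.01-fold in wild type RNA and 7.46-fold in RPF (6.65 to 8.39), and in RPF 4.88-fold, 4.90-fold and 5.65-fold in msp1delta, pex19delta and the double deletion.

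Turning to the deletions, each was compared with wild type after scaling libraries within an assay, as a log2 ratio that is positive where the deletion is higher. All 3 comparisons share the wild type libraries, so a high or low wild type value enters each of them. Differences of 1.5-fold or more in RNA and RPF alike were found for no member in any deletion (0 of 29 in each). Among all measured genes 0.348% were higher and 0.187% lower by that rule in msp1delta, 0.482% and 0.482% in pex19delta, and 0.134% and 0.348% in the double deletion, so a count of 0 among 29 is near the background.

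In a single assay few members passed 1.5-fold. In msp1delta 3 were higher in RPF (MSM1, MST1 and NAM2; background 10.1%) and 0 lower (background 8.3%), and in RNA 0 were higher or lower (backgrounds 0.883% and 0.91%). The msp1delta calls depended on the processing: MSM1 alone stayed 1.5-fold higher with the trend in length and GC content removed (MST1 0.58, NAM2 0.51), and with TMM scaling over all listed genes (MST1 0.41, NAM2 0.46), where GLN4 and MSW1 were 1.5-fold lower. In pex19delta MSF1 was the 1 member higher in RNA (background 3.75%) and MSW1 the 1 member lower in RPF (background 1.87%), with 0 lower in RNA (background 5.41%) and 0 higher in RPF (background 2.92%). In the double deletion the count was 0 in each direction, against backgrounds of 0.883% higher and 1.39% lower in RNA and 1.79% higher and 1.34% lower in RPF. With no minimum on size, 5 of 11 mitochondrial genes were higher in both assays in msp1delta (DIA4, ISM1, MSD1, MSM1 and MST1; background 28.5%), and 8 of 18 cytosolic or dual genes were lower in both (background 27.9%). In pex19delta 5 of 11 mitochondrial genes were higher in both (background 28.1%) and 4 of 18 others lower (background 25.9%). In the double deletion the counts were 6 of 11 (background 27.9%) and 10 of 18 (background 28.5%), at least as many as in msp1delta. In the other direction 1, 5 and 2 of 18 cytosolic or dual genes were higher in both in msp1delta, pex19delta and the double deletion. The backgrounds were 28.5%, 28.1% and 27.9%. Mitochondrial genes lower in both were 1, 1 and 2 of 11 (backgrounds 27.9%, 25.9% and 28.5%).

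In msp1delta the mitochondrial synthetases had higher RPF values than in wild type while their RNA lay near it. Of the 11 measured mitochondrial genes 9 were higher in RPF, where 51.1% of all genes were, with a median of 0.47. In RNA 6 of 11 were higher (background 49.5%) with a median of 0.03. The cytosolic or dual genes had medians of −0.08 in RNA and −0.10 in RPF, with 4 and 7 of 18 higher. The RPF reads of all 13 mitochondrial genes, added up, gave 0.43 (0.30 to 0.55), and those of the 18 other members −0.09 (−0.12 to −0.05).

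Reads scaled to libraries of 1000000 show the pattern by library, in the order wild type, msp1delta, pex19delta and double deletion. MSM1, the methionyl enzyme, had RPF values of 24.1, 44.1, 28.4 and 24.2, and a log2 ratio in msp1delta of 0.86 (0.28 to 1.47) on 51 and 49 unscaled reads. NAM2, the leucyl enzyme that also assists splicing of mitochondrial introns, had 68.1, 108, 97.9 and 64.2, and a ratio of 0.66 (0.30 to 1.03). MST1, the threonyl enzyme, had 40.7, 62.1, 50.3 and 47.1, and a ratio of 0.60 (0.13 to 1.08). In each of the 3 genes msp1delta was the highest library, which follows largely from picking them for a high msp1delta ratio. With these 3 included, msp1delta was highest in RPF for 10 of 13 mitochondrial members. It was highest for 4 of 18 cytosolic or dual ones and for 35.3% of all measured genes. The 13 include MSR1 and SLM5, which did not pass the count minimum, and SLM5 is among the 10. The counting interval lay above 0 for 6 of the 11 measured mitochondrial genes, as for 21.7% of all measured genes, and below 0 for 0 of 11, against 21.6%. Among cytosolic or dual genes it lay above 0 for 4 of 18 and below 0 for 8.

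MSW1, the tryptophanyl enzyme, did not follow, with RPF values of 37.4, 26.1, 24.0 and 40.7 and a ratio of −0.51 (−1.18 to 0.11) from 29 reads in msp1delta. MSK1 had a ratio of −0.11 (−0.71 to 0.47). Among cytosolic genes ILS1 and MES1, which had the lowest wild type efficiency of them, had the highest msp1delta RPF ratios. These were 0.46 (0.31 to 0.62) and 0.39 (0.14 to 0.64). That efficiency and this ratio share the wild type RPF count, so a low count there lowers the first and raises the second. GLN4, DED81 and SES1 had the lowest ratios, at −0.39, −0.36 and −0.32.

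Properties of the msp1delta RPF library moved with this result. It had the lowest total, and its ratios over all genes were the most spread, with a scaled median absolute deviation of 0.43 against 0.274 in pex19delta and 0.223 in the double deletion. Its ratio was higher for longer genes (Spearman 0.312 with coding length over 3735 genes), and mitochondrial members, with a median coding length of 1611 nt, are longer than the general median of 1305 nt. The cytosolic or dual members, with a median of 1896 nt, had an RPF median of −0.10 in the same library. They also differ from the mitochondrial members in read depth and wild type efficiency, so the classes do not separate length from these. The 1060 measured genes whose mean RPF count and coding length lay in the range of the mitochondrial members had a median of 0.14, with 62.5% higher. With the trend in length and GC content removed, the mitochondrial median was 0.44. Under a scaling over all listed genes, which moved the median of all genes to −0.18, it was 0.27. Efficiency over all measured genes had a median of −0.86 in wild type and −0.64 in msp1delta. Its lower quartile was −1.61 and −1.28, and its upper quartile −0.18 and −0.09. The mitochondrial median of efficiency minus the general median was −0.47 in wild type and −0.35 in msp1delta. The part of depth, gene length and the general shift in efficiency in the mitochondrial RPF median was not tested.

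**Figure D5:**
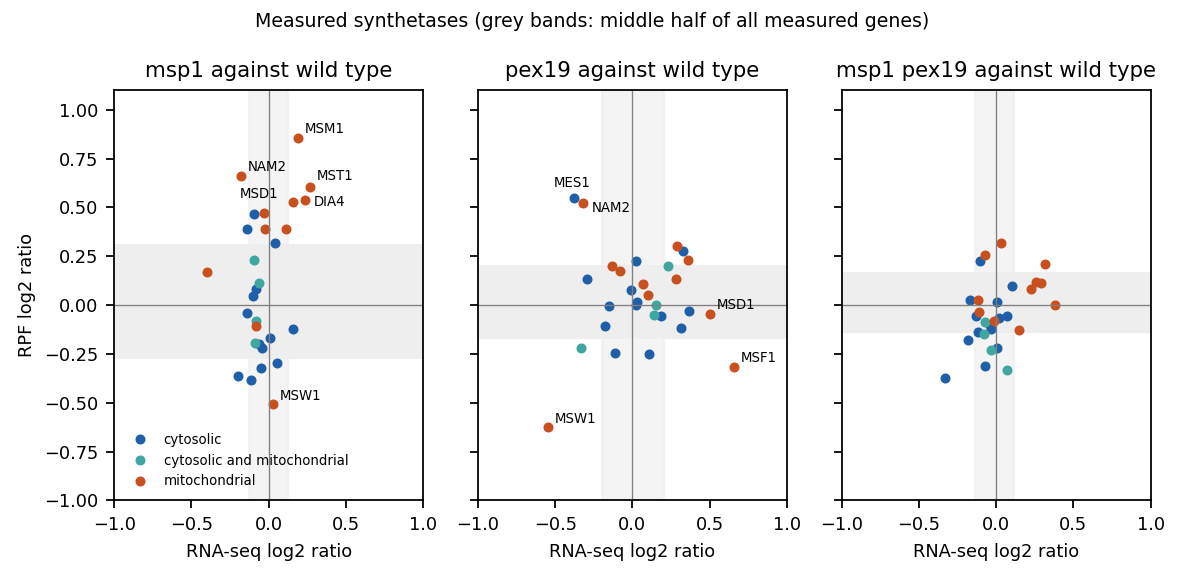
Log2 ratio to wild type in RNA-seq (x) and RPF (y) of the 29 measured synthetase genes in the 3 deletions, 1 point a gene; grey bands span the interquartile range of all measured genes, and genes beyond 0.5 in either assay are named. In msp1delta the mitochondrial points centre at 0.03 in RNA-seq and 0.47 in RPF, while in the double deletion (msp1 pex19) none is beyond 0.5.

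In pex19delta the class medians lay near 0 and single members on either side. Cytosolic or dual genes had medians of 0.03 in RNA, with 11 of 18 higher (background 51.2%), and −0.00 in RPF, with 8 higher (background 51.0%); both had the other sign when libraries were scaled by their totals, to −0.02 and 0.00. Mitochondrial genes had medians of 0.10 and 0.13, with 7 and 8 of 11 higher. Single genes differed more than the medians. MSF1, mitochondrial phenylalanyl-tRNA synthetase, had scaled RNA values of 60.3, 59.4, 95.5 and 70.5 in the order above, and a ratio of 0.66 (0.45 to 0.87), while its RPF ratio was −0.32 (−0.72 to 0.08). MSD1 was at 0.50 (0.36 to 0.64) in RNA and −0.05 (−0.34 to 0.25) in RPF.

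MSW1 had the lowest ratio of the measured members in pex19delta in both assays. Its scaled RNA values were 42.9, 43.6, 29.3 and 51.2, which gave −0.55 (−0.87 to −0.24) in pex19delta, and its RPF ratio was −0.62 (−1.16 to −0.12) on 79 and 55 reads. In the double deletion against msp1delta, the same loss in the other background, it was 0.23 (−0.03 to 0.49) in RNA and 0.63 (−0.01 to 1.32) in RPF. MES1 and NAM2 had opposite signs in the assays, which was common in pex19delta. Of all measured genes only 28.1% were higher in both assays there and 25.9% lower in both. MES1 was at −0.38 (−0.49 to −0.27) in RNA and 0.55 (0.35 to 0.75) in RPF, from scaled RPF values of 158, 208, 232 and 185. NAM2 was at −0.32 (−0.46 to −0.18) and 0.52 (0.21 to 0.84). In the double deletion against msp1delta NAM2 was at 0.16 (0.03 to 0.30) and −0.75 (−1.14 to −0.36), the reverse of both signs.

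In the double deletion the RPF ratios of measured members spanned −0.37 to 0.32, against −0.51 to 0.86 in msp1delta and −0.62 to 0.55 in pex19delta. Cytosolic or dual genes had medians of −0.06 in RNA, with 12 of 18 lower (background 52.3%), and −0.11 in RPF, with 14 lower (background 48.3%). The 4 dual genes were all lower in RPF, from −0.33 (HTS1) to −0.09 (VAS1). WRS1 was lowest in both assays, with scaled RNA values of 116, 117, 103 and 92.5 and ratios of −0.33 (−0.51 to −0.16) in RNA and −0.37 (−0.65 to −0.11) in RPF. Mitochondrial genes had medians of 0.15 and 0.08, with 7 and 8 of 11 higher (background 47.7% and 51.7%). MSM1 had the highest RNA ratio, 0.38 (0.18 to 0.58), and MSD1 the highest RPF ratio, 0.32 (0.02 to 0.62).

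The unmeasured members, MSR1 and SLM5, had 26 to 57 RPF reads per library. SLM5 was at 0.59 (0.37 to 0.82) in RNA in pex19delta and 0.49 (0.27 to 0.72) in the double deletion, from scaled values of 53.7, 52.9, 81.2 and 75.5, so that both strains without PEX19 lay above both strains with it. Its RPF ratio was 0.95 (0.20 to 1.75) in msp1delta, on 30 and 31 reads. MSR1 was within counting error of wild type in RPF in all 3 deletions.

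Outside the chosen set lay 5 more synthetase genes, and 4 of them passed the count minimum. YDR341C (arginine), YNL247W (cysteine) and YHR020W (proline) had wild type levels of 184, 136 and 218 TPM in RNA and 136, 67.4 and 146 TPM in RPF, all within the cytosolic range. AIM10, annotated as a putative prolyl enzyme, had 59.1 and 28.0 TPM, within the mitochondrial range, and GRS2, the second glycyl gene, 43.1 and 7.55 TPM. Their RPF ratios in msp1delta were 0.33 for YDR341C (0.16 to 0.50), 0.34 for AIM10 (−0.05 to 0.73), 0.05 for YNL247W, −0.20 for YHR020W and 0.19 for the sparsely read GRS2. ARC1, the cofactor of GUS1 and MES1, was at 0.06 in RNA and −0.32 (−0.45 to −0.19) in RPF there.

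Yeast mitochondria have no glutaminyl-tRNA synthetase, and glutaminyl-tRNA is formed from misacylated glutamyl-tRNA by an amidotransferase of the subunits HER2, PET112 and GTF1. Of these 3 genes 1 was higher in RPF in msp1delta, 0 in pex19delta and 0 in the double deletion. The shares of all measured genes were 51.1%, 51.0% and 51.7%. HER2, at 93, 25, 90 and 47 RPF reads in the order above, had RPF ratios of −0.95 (−1.67 to −0.32), −0.16 (−0.60 to 0.27) and −0.66 (−1.21 to −0.15). PET112 was between −0.15 and −0.05 in RPF in all 3 deletions, and GTF1 at 0.17, −0.41 and −0.61.

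Factors of later steps of translation were described by the same counts. Of 8 measured mitochondrial translation factors (TUF1, MEF1, MEF2, IFM1, AIM23, MRF1, RRF1 and GUF1) 3 were higher in RPF in each deletion. Of all measured genes 51.1%, 51.0% and 51.7% were higher in RPF in msp1delta, pex19delta and the double deletion. The RPF medians of the 8 factors were −0.11, −0.07 and −0.19 in that order. In RNA 2, 7 and 5 of the 8 were higher, against 49.5%, 51.2% and 47.7% of all measured genes. In RNA IFM1, initiation factor 2, was at 0.94 (0.82 to 1.06) in the double deletion, with an RPF ratio of −0.27. RRF1, the ribosome recycling factor, was at −0.87 (−1.17 to −0.59) in RNA in msp1delta, with −0.27 in RPF. FMT1, the formyltransferase of the initiator tRNA, did not pass the count minimum.

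The 8 cytosolic elongation factor genes had RPF medians of −0.12, −0.01 and −0.15, with 6, 4 and 7 of them lower. Of all measured genes 48.9% were lower in RPF in msp1delta and 48.3% in the double deletion. YEF3 (elongation factor 3) was at −0.32 and EFB1, an exchange factor subunit, at −0.25 in RPF in the double deletion, and TEF4 and CAM1 were between −0.11 and 0.21 in RPF throughout. TEF1 and TEF2, and EFT1 and EFT2, share over 99% of their sequence, so their single values are uncertain. Of 12 genes of tRNA maturation and export 8 were measured, and 7, 7 and 6 of them were higher in RPF in the 3 deletions, against 51.1%, 51.0% and 51.7% of all measured genes. In RNA 3, 3 and 4 of the 8 were higher, with medians of −0.02, −0.24 and −0.03. CCA1, which adds the tRNA 3′ end, was at 0.35, 0.14 and 0.19 in RPF, and POP1, an RNase P subunit, at 0.82 in msp1delta and −0.46 in pex19delta.

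Uncharged tRNA is sensed by the kinase GCN2 with GCN1 and GCN20, which raises translation of the activator GCN4, a regulator of amino acid synthesis. In pex19delta the RPF ratios were 0.58 for GCN4 (0.33 to 0.84), 0.44 for GCN2 (0.09 to 0.81), 0.27 for GCN20 (−0.01 to 0.55) and 0.26 for GCN1 (0.09 to 0.43), and the RNA ratios were 0.02, −0.03, 0.15 and 0.17. GCN4 had 207, 74, 335 and 169 RPF reads, with ratios of −0.55 in msp1delta and 0.02 in the double deletion. Of 33 measured amino acid enzymes controlled by Gcn4, 28 were higher in RNA and 31 in RPF in pex19delta (51.2% and 51.0% of all measured genes), with medians of 0.22 and 0.18. In msp1delta, where the GCN4 ratio was negative in RPF, 27 were higher in RNA and 19 in RPF (49.5% and 51.1% of all genes), with medians of 0.10 and 0.03. In the double deletion 22 and 20 were higher (47.7% and 51.7%), with medians of 0.07 and 0.03. HOM3, ARG4, HIS5 and BAT1 led them in pex19delta, at 0.69, 0.68, 0.61 and 0.57 in RNA. The medians of the cytosolic or dual synthetases in pex19delta were 0.03 and −0.00, and the difference from these enzymes was not tested.

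The Gcn4 binding motif TGACTCA was searched on both strands from 250 bases before to 50 after each start codon. It was present in 15 of 34 of these enzyme genes (44.1%) and in 2.87% of all 5675 windows. It was present in 1 of 18 cytosolic or dual synthetase genes, GLN4, where it began at base 20 of the coding sequence, and in 0 of 13 mitochondrial ones. These counts describe the letters in the window and say nothing of binding.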

How the data were processed

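One RNA-seq and 1 RPF library from each of 4 yeast strains were used. Both libraries of a strain come from 1 sample, per the design text. The submitters' processing notes name cutadapt 1.8, STAR 2.5 and genome build R64 (sacCer3). Not given in the sources used here: how reads were counted, and whether by strand. The authors' deposited read counts are whole numbers, never below 1. The authors' deposited TPM values are scaled by length. The listed genes made up 81.4 to 91.1% of TPM in RNA-seq and 99.3 to 99.7% in RPF, so TPM was rescaled over the listed genes. The authors' deposited RPM and RPKM columns, in 1 file, imply a length 50 nt below the coding length for 31 of 31 members (within 1 nt) and served for that check alone.

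TMM factors (edgeR 4.0.16 in R 4.3.3), computed for each assay from genes averaging 50 counts or more, put the libraries on one scale. A pseudocount of 1 read, in proportion to library size, entered the log2 ratios. The background was the 3737 genes averaging 50 counts or more in both assays. Ratios have exact conditional binomial (Clopper-Pearson) 95% intervals, and levels exact Poisson ones. On simulated Poisson counts, which the ratio intervals assume, these held the true value at close to their nominal rate. The simulation had no spread beyond counting error, so it checks the calculation alone. Sequences, coding lengths and positions come from the RefSeq R64 genome and annotation (5994 of the listed genes matched), and the codon index and motifs were computed from them. Alternatives were library totals, DESeq2 1.42.0 size factors, TMM over all genes, pseudocounts of 0.1 and 5, other count minima, correction for trends in GC content and length, and counts per coding length.

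Members and lists were chosen with earlier results of these data known. Named were all members, MSP1 and PEX19, all genes of lists of up to 10, and up to 4 genes of longer lists with the largest ratios of the same sign in both assays.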

Additional observations from a re-analysis of the deposited data

How the results depend on the processing

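Of 436 alternative values of 55 results, 404 stayed within the limits set for a stable value and 32 moved. A reversal was defined only for ratios of single genes of at least 1.5-fold, and 0 of those reversed. No class median ratio to wild type was that large, so a change of its sign could not be counted as a reversal. The values that moved for a class or strain as a whole were few. Scaled by library totals, 1 member, MSW1, passed 1.5-fold in both assays in pex19delta (lower), where the count was 0 before. With TMM over all listed genes the cytosolic or dual median in msp1delta was −0.30 in RPF and −0.25 in efficiency, against −0.10 and −0.05. With measured members alone, the log2 ratio of class medians in wild type RPF was 2.79 instead of 3.02, since the least read mitochondrial genes drop out. The other 28 moved values were counts of members by direction or fold, most of them at higher count minima. A mean of 200 counts in each assay left 0 mitochondrial members, so no median could be had. The mitochondrial RPF median in msp1delta ranged from 0.27 to 0.53, the latter for the 5 genes with a mean of at least 100 RPF counts, a minimum chosen after seeing the data. Some class medians near 0 had the other sign: mitochondrial RNA in msp1delta was −0.00 with library totals against 0.03, and with that minimum mitochondrial RPF in the double deletion was −0.03 against 0.08. Depth limits the mitochondrial members most, at 26 to 226 RPF reads each. No paired analysis was possible because each strain has 1 library per assay.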
